A study of Mus musculus with 6 samples.

Results

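The genes described here are YAP and TAZ, the TEAD factors they work with, and genes known as their targets. They are Yap1, Wwtr1 (which encodes TAZ), Tead1, Tead2, Tead3, Tead4, Lats2, Ajuba, Amotl2 and Ankrd1, 10 of the 18194 genes that the platform annotation names on their own probe sets. Every probe set whose platform symbol was 1 of these names was taken, which gave 21 of the 45101 probe sets on the array. Of the 21, 16 passed the filter on low signal and were tested, and these came from 8 of the 10 genes. The 5 left untested were both Tead4 probe sets, both Ankrd1 probe sets and 1 of 6 for Lats2. A further probe set is annotated to Lats2 together with another gene and was not used.

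The arrays compared C3H10T1/2 cells, a mouse mesenchymal line that can become fat, cartilage, bone or muscle, with and without BMP4, a secreted bone morphogenetic protein. In the treated group the cells received 50 ng/ml BMP4 while they were dividing, and in the control group they received none; RNA of both was taken past confluence. There were 3 samples per group, each on 1 single-colour array, and no genetic change is named for either group. Separate cultures are not stated for the samples of a group. P-values here set the difference between the groups against the spread of samples within them, and that spread may therefore be technical only.

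YAP and TAZ are coactivators that do not bind DNA themselves. In the nucleus they join a TEAD factor, which binds DNA, and switch on genes of growth and adhesion. The Hippo kinase cascade, which ends in the kinases Lats1 and Lats2, phosphorylates YAP and TAZ and keeps them in the cytoplasm; crowding of cells and a soft surface do the same. Several targets of YAP feed back on it: Lats2, Amotl2 and, on the opposing side, Ajuba, a scaffold that holds Lats kinases in check. In mesenchymal cells TAZ is known to favour bone over fat genes. The arrays measured RNA, not the place or phosphorylation of these proteins.

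The letters GGAATG, or CATTCC on the other strand, are the core of the site that TEAD factors bind, and the promoters of several of these genes hold it. RefSeq start sites on GRCm38.p6 were found in the promoter table for 8 of the 10 genes, with 12 start sites. In the 250 bases before the start, 8 of these 12 windows held the letters on either strand, in 6 of the 8 genes, against 12.6% of all 32851 windows of that length. The 2 Wwtr1 windows overlap and share 1 match. Of the other YAP-TEAD targets described further on, 4 of 13 windows held the letters, in 4 of 12 genes. The 2 strands' letters cannot overlap. The sequences are shown for the coactivators and for the targets Ankrd1, Amotl2 and Ajuba, which the comparison turns on, in the direction of transcription with the matches in capitals. They lie at chr9:8004597-8004846 on the minus strand for Yap1, chr3:57575911-57576160 on the minus strand for Wwtr1, chr19:36119845-36120094 on the minus strand for Ankrd1, chr9:102717554-102717803 on the plus strand for Amotl2 and chr14:54577662-54577911 on the minus strand for Ajuba.
Yap1: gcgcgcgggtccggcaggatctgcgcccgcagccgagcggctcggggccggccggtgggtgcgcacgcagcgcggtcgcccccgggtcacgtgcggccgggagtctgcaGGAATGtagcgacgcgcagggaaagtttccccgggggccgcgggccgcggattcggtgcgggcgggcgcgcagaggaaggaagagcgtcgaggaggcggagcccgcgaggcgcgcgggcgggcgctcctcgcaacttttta
Wwtr1: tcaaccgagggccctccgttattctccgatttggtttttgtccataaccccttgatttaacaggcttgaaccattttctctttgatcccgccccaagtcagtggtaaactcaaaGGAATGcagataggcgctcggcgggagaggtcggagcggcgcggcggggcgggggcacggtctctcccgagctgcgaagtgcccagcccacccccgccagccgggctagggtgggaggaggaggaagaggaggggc
Ankrd1: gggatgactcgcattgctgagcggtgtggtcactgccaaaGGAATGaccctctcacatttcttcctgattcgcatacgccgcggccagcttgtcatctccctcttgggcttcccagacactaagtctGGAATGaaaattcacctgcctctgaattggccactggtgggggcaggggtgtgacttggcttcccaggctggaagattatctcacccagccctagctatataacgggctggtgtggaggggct
Amotl2: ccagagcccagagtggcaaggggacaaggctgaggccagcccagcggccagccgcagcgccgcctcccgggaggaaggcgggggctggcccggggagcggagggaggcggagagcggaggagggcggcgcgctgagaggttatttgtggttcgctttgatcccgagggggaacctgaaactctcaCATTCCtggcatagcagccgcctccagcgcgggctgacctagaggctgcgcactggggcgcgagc
Ajuba: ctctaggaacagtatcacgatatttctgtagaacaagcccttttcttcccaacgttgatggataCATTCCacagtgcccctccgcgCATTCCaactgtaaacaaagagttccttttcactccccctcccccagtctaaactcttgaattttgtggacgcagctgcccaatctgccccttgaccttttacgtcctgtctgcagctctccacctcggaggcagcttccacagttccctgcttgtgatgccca
Ankrd1, Ajuba and the window of the second Tead3 start each held 2 matches, which 0.992% of all windows did at least. Several matches also lay outside the members. Of the upstream genes described further on, Wwc2 held 3 and Wtip 4, both named after their matches were seen, while most windows of that list held none. The first base of the Ankrd1 matches lay 210 and 123 bases before the start, and of the Ajuba matches 186 and 164. In Amotl2 the match began 65 bases before the start, in Yap1 141 and in Wwtr1 136. The Tead2 window and both Lats2 windows did not hold the letters, and 2 of 3 Tead3 windows did. A match describes the sequence and is not a measured binding site.

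None of the 16 tested probe sets passed the test between BMP4 and control cells. The test was limma on log2(signal + 16), adjusted by the Benjamini-Hochberg method over all 27022 probe sets kept, with a threshold of 0.05, and a probe set under it is described as called. Of all probe sets tested 9.12% were called; 0 of the 16 were, a count too small to set apart from that share. At an unadjusted p under 0.05 there was 1, a Lats2 probe set, where 22.5% of all probe sets had such a p. Log2 changes of the 16 ran from -0.26 to 0.34, 7 positive and 9 negative, with a median of -0.03 against 0.03 over all probe sets tested. The median size of change was 0.13, against 0.16 over all. The ends of all 16 95% intervals lay between -0.55 and 0.77 on this scale, which understates the change of dim probe sets. With 1 added to the signal in place of 16, the interval of the dim Lats2 probe set 1425420_s_at reached 1.05. In cells of a culture, fewer cells with a transcript and less of it per cell cannot be told apart.

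**Figure D1:**
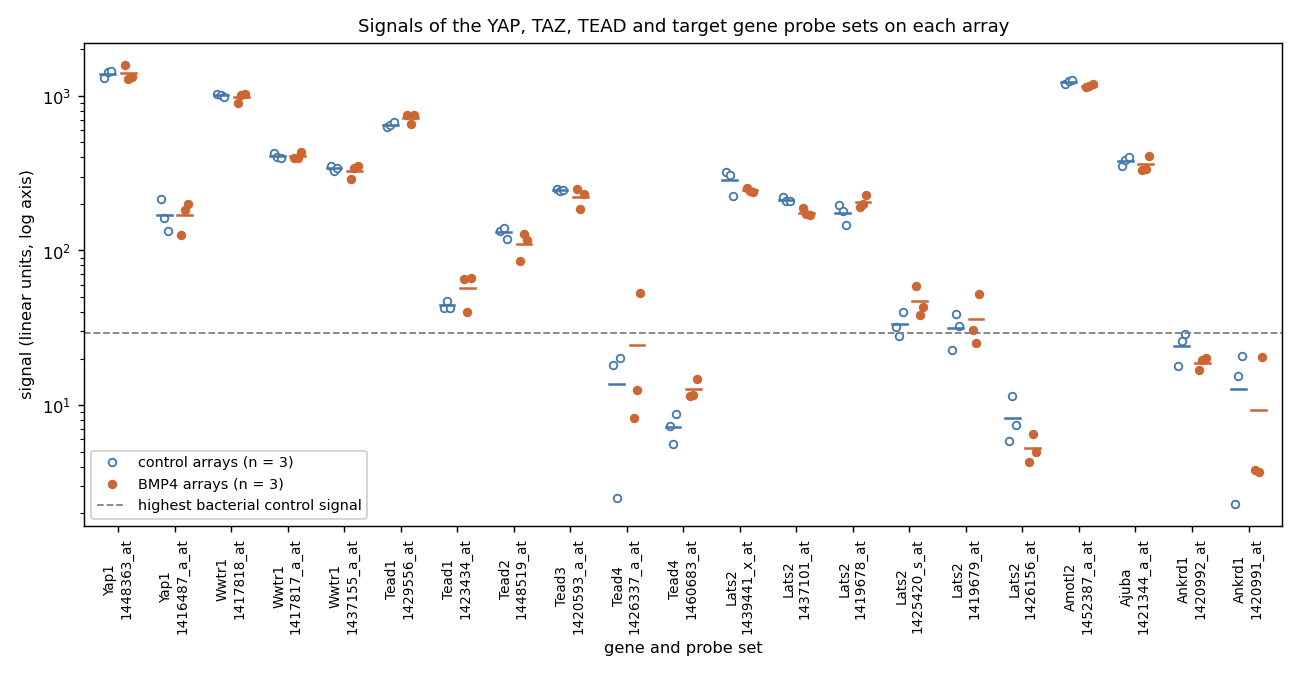
Signal of each of the 21 probe sets on every array (linear signal on a log axis; open circles, 3 control arrays; filled circles, 3 BMP4 arrays; short lines, group means). The dashed line, 29.1, is the highest signal of a bacterial control probe set, with the hybridisation controls left out. All Ankrd1 values and all but 1 Tead4 value lie under it.

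Yap1, which encodes the coactivator YAP, had nearly equal signals in both groups. On its brighter probe set (1448363_at) the BMP4 arrays read 1591, 1279.3 and 1328.9, the control arrays 1303.9, 1424.8 and 1441.3. The highest and the lowest value both came from BMP4 arrays, so the groups overlapped fully. The log2 change was 0.00 ± 0.09 (SE, n = 3 per group; 95% interval -0.19 to 0.20; limma adjusted p = 0.984), which as a ratio of BMP4 to control, after adding 16 to each signal, allows 0.877 to 1.15. The dimmer probe set (1416487_a_at) had BMP4 signals of 126.1, 183.1 and 199.6 and control signals of 215.8, 162.2 and 133. Here too the groups overlapped, and the change was 0.00 with a wider interval of -0.41 to 0.40 (adjusted p = 0.992).

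Wwtr1, which encodes the coactivator TAZ, was measured by 3 probe sets that gave the same picture. The brightest (1417818_at) read 894.9, 1006.4 and 1034 with BMP4 and 1023.7, 1019 and 989.4 without it, a log2 change of -0.05 ± 0.07 (95% interval -0.21 to 0.11, limma adjusted p = 0.74). The lowest of these values, from BMP4 replicate 1, lay apart from the other 5. Signals of 1417817_a_at were 395.7, 398.9 and 434.1 against 426.6, 402.9 and 396.6, a change of 0.00 (-0.16 to 0.16, adjusted p = 0.99). Signals of 1437155_a_at were 290.9, 342.6 and 350.7 against 350.9, 327.1 and 343.7, a change of -0.06 (-0.24 to 0.13, adjusted p = 0.755). BMP4 replicate 1 had the lowest value of the 6 arrays on each of the 3 probe sets, and the groups overlapped on each.

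The TEAD factors, which carry YAP and TAZ to DNA, did not pass the test either, and Tead4 was not measured above background. Tead1 was read on its brighter probe set (1429556_at) at 752, 654.8 and 751.1 in BMP4 cells and at 625, 644 and 672.6 in controls. The BMP4 values at 752 and 751.1 lay above all control values and the other lay among them. This gave a log2 change of 0.15 ± 0.07 (95% interval -0.02 to 0.31, limma adjusted p = 0.277). The dimmer Tead1 probe set (1423434_at) had BMP4 signals of 65.4, 39.9 and 65.9 against 42.7, 47 and 42.6. Here BMP4 replicate 2, also the lowest BMP4 array on the brighter probe set, lay below all controls. Its change was 0.26 ± 0.19 (-0.15 to 0.67, adjusted p = 0.452).

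For Tead2, a factor known from the early embryo, the values ran the other way. Its signals were 85.6, 128.1 and 117.6 with BMP4 and 134.6, 140 and 118.9 without it, and BMP4 replicate 2 overlapped the control values. Its log2 change was -0.23 ± 0.14 (95% interval -0.55 to 0.09, limma adjusted p = 0.379). Tead3 gave 250, 184.7 and 230.2 against 248.2, 242.7 and 245.8, a change of -0.15 ± 0.11 (-0.38 to 0.09, adjusted p = 0.453). Its control arrays lay close together, with an SD of 2.76, and the BMP4 arrays spread over them with an SD of 33.5.

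Tead4, a factor known from the trophoblast and from muscle, had 2 probe sets under the filter. Signals of 1426337_a_at were 8.2, 12.5 and 53.2 with BMP4 and 18.2, 2.5 and 20.1 without it, and those of 1460683_at 11.4, 11.7 and 14.8 against 7.3, 5.6 and 8.7. Only the value of 53.2 exceeded 29.1, which is taken here as the level of background. It is the highest signal of the bacterial control probe sets, with the hybridisation controls among them left out. The BMP4 values of 1460683_at lay wholly above the control values, but all of them were below that level, so no change is given for Tead4.

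**Figure D2:**
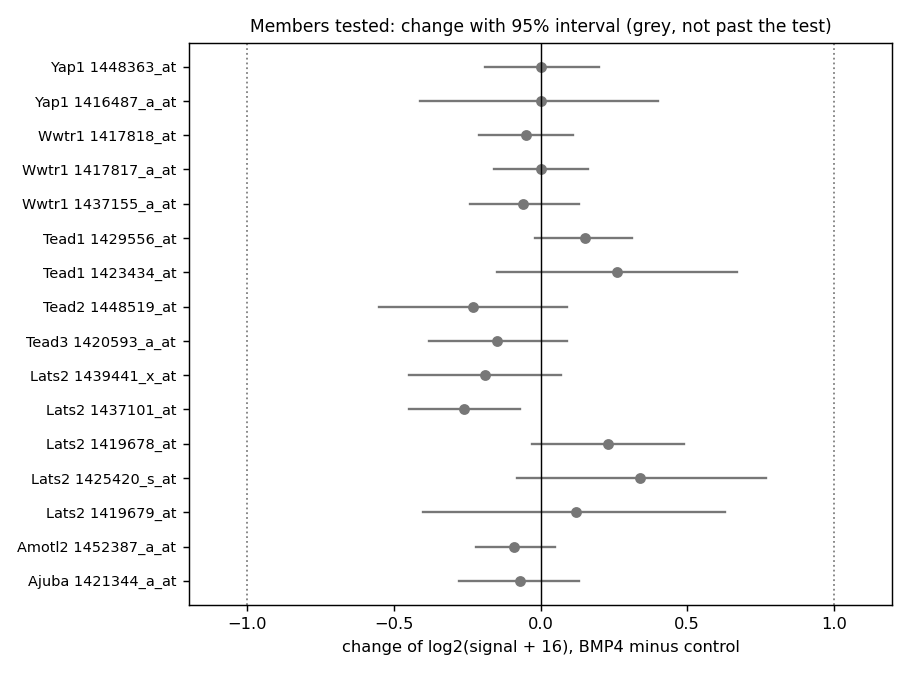
Log2 change, BMP4 minus control, of the 16 tested probe sets with 95% intervals from limma (3 arrays per group; grey, not past the test; dotted lines, a change of 1 in log2(signal + 16)). The interval ends run from -0.55 to 0.77 on this scale, and the interval of Lats2 probe set 1437101_at, -0.45 to -0.07, is the one that does not include 0.

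Lats2, the kinase that phosphorylates YAP and is itself a YAP target, had probe sets with changes of either sign. On 1437101_at the BMP4 signals of 186.9, 171.6 and 168.5 all lay below the control signals of 221.1, 209.7 and 209.6. This was the 1 tested probe set of the 16 whose groups did not overlap, where 28.2% of all probe sets tested had groups apart. The log2 change was -0.26 ± 0.09 (95% interval -0.45 to -0.07, limma adjusted p = 0.098). With each array centred on its median signal the change was -0.36 and was called (adjusted p = 0.0309); over its 17 alternative settings the adjusted p ran from that value to 0.251. That centring lowered the median change of all probe sets tested from 0.03 to -0.07, and 25.1% of its calls were higher with BMP4 against 46.1% as deposited.

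On 1439441_x_at, another Lats2 probe set, BMP4 signals were 252.9, 241.9 and 238.3 and control signals 320.9, 307.1 and 224.8. Control replicate 3 lay below all BMP4 arrays and the other control arrays above them. The log2 change was -0.19 ± 0.12 (limma adjusted p = 0.385), and without control replicate 3 it was -0.34 and was called (adjusted p = 0.0483). On 1419678_at the values ran upward, 190.2, 199.3 and 229.7 against 195.5, 180.7 and 146.2, a change of 0.23 ± 0.12 (-0.03 to 0.49, adjusted p = 0.282). Signals near background gave 0.34 ± 0.19 on 1425420_s_at (59, 38.1 and 43.4 against 31.9, 28.1 and 39.8; adjusted p = 0.324) and 0.12 ± 0.23 on 1419679_at (30.5, 25.4 and 52.4 against 22.8, 38.9 and 32.6; adjusted p = 0.82). The sixth, 1426156_at, stayed between 4.3 and 11.5 on all arrays and was not tested. Which parts of the Lats2 transcript these probe sets read was not examined, and the difference between them was not tested.

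Amotl2 and Ajuba, targets with TEAD letters in the promoters printed above, were not past the test. Amotl2, a scaffold that binds YAP and holds it at cell junctions, read 1136.2, 1156.8 and 1189.9 with BMP4 and 1184.5, 1255.9 and 1258 without it. BMP4 replicate 3 lay just above control replicate 1, and the other arrays kept apart by group. Amotl2 gave -0.09 ± 0.06 on the log2 scale (95% interval -0.22 to 0.05, limma adjusted p = 0.468), which allows a ratio of 0.856 to 1.04. Ajuba read 332.5, 337.4 and 411.1 against 353.1, 382.5 and 400.2, with the highest and the lowest value in the BMP4 group. Its change was -0.07 ± 0.09 (-0.28 to 0.13, adjusted p = 0.697).

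Ankrd1, an ankyrin repeat protein of muscle nuclei widely used as a readout of YAP activity, was not above background in either group. Its probe set 1420992_at read 16.8, 19.6 and 20.1 with BMP4 and 17.9, 25.8 and 28.9 in controls. Its second probe set, 1420991_at, read 3.8, 3.7 and 20.4 against 2.3, 15.4 and 20.7. All 12 values were under 29.1, and the groups overlapped on both probe sets. No fold change is given for Ankrd1, and these signals put no close limit on a change of a low transcript.

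Genes upstream of YAP were compared from a list of 21, with each gene read on its brightest tested probe set. For 20 of them a probe set was tested; Stk3 had no probe set of its own name. Of the 20, 1 was higher and 3 were lower with BMP4, against 5.03% and 5.66% of the 12966 genes tested, and the median change was -0.03 against 0.03 over all genes. Those called were Fat1, Frmd6, Amot and Fat4, while the kinases and their adaptors Stk4, Lats1, Mob1a, Mob1b, Sav1, Taok1, Taok2, Taok3 and Map4k4 were not called on these probe sets.

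Frmd6, a FERM domain protein of cell junctions that acts on the Hippo cascade, fell. Its signals were 433.1, 465 and 443.6 in BMP4 cells and 727.1, 671.3 and 756.2 in controls. The groups lay far apart, with a log2 change of -0.66 ± 0.07 (limma adjusted p = 0.000161). Amot, angiomotin, which binds YAP like its relative Amotl2, fell from 892.9, 961.6 and 955.4 to 612.1, 615.8 and 563.6. Its groups did not overlap either, where 28.2% of all probe sets tested had groups apart. The change was -0.64 ± 0.07 (adjusted p = 0.000163), but the other 2 Amot probe sets, both dimmer, gave -0.25 (adjusted p = 0.497) and 0.18 (adjusted p = 0.409). The calls of Frmd6 and Amot held in all 17 alternative settings, with adjusted p values up to 0.00908 and 0.00974.

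The large cadherins Fat1 and Fat4, which can feed into the Hippo cascade, differed in direction. Fat1 read 3189.2, 3244.4 and 3158.5 with BMP4 and 2078.5, 2657.4 and 2404.3 without it, a log2 change of 0.43 ± 0.09 (limma adjusted p = 0.0128). Fat4 read 722.3, 858.7 and 904.2 against 995.2, 1264 and 1083.2, a change of -0.42 ± 0.10 (adjusted p = 0.028), and gave -0.34 (adjusted p = 0.0135) on its other probe set. The call of Fat1 was lost without BMP4 replicate 2 (adjusted p = 0.051). The call of Fat4 on the brighter probe set was lost without BMP4 replicate 1 (adjusted p = 0.0839), BMP4 replicate 2 (0.0561), control replicate 2 (0.107) or control replicate 3 (0.0643). Sav1, the adaptor of the Stk3 and Stk4 kinases, is named after its values were seen: it gave 0.12 (adjusted p = 0.459) on its brighter probe set and 0.26 (adjusted p = 0.0374) on the other, a call lost when any array except BMP4 replicate 1 was left out.

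Vgll proteins bind TEAD factors at the surface that YAP uses. Of 4 Vgll genes 3 were tested, 0 rose and 1 fell, against 5.03% and 5.66% of all genes tested. A list of 3 genes is too small to set apart from these shares. Vgll3 fell on each of its 3 probe sets. The brightest read 558.1, 638.6 and 660.9 with BMP4 and 845.9, 827.8 and 762.1 without it, a log2 change of -0.38 ± 0.08 (limma adjusted p = 0.0115). The others gave -0.35 (adjusted p = 0.0124) and -0.31 (adjusted p = 0.0228). On all 3 the groups stayed apart, as they did on 28.2% of all probe sets tested. Without control replicate 2 the brightest had an adjusted p of 0.0505. Vgll2 gave -0.04 (adjusted p = 0.927) and Vgll4 0.26 (adjusted p = 0.356).

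**Figure D3:**
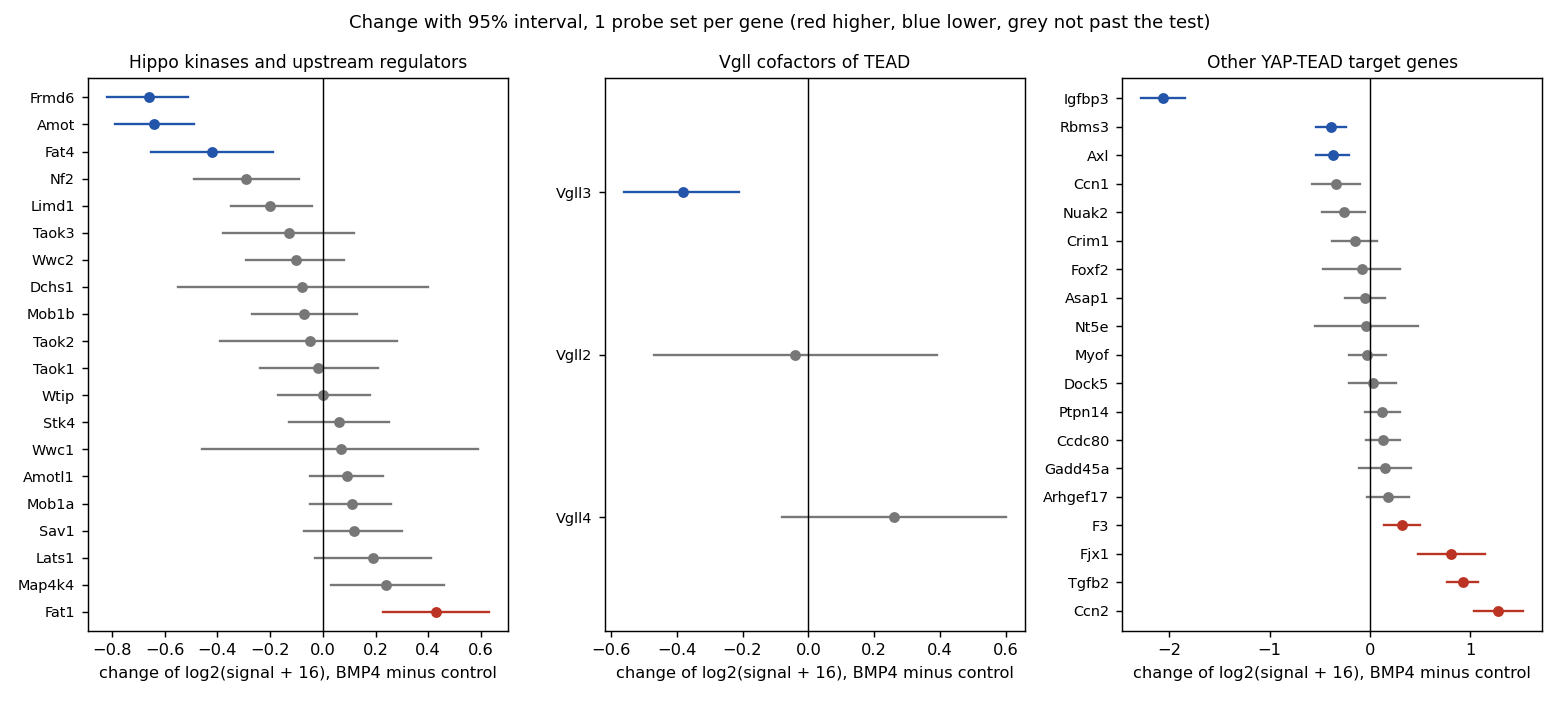
Log2 change, BMP4 minus control, with 95% intervals from limma for genes around YAP and TEAD, 1 probe set per gene (left, 20 Hippo kinases and upstream regulators; middle, 3 Vgll genes; right, 19 other targets; the horizontal scales differ; red, higher; blue, lower; grey, not past the test). Igfbp3 at -2.06 and Ccn2 at 1.28 mark the ends of the target list, in which 12 of 19 genes are grey.

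Other genes known as YAP and TEAD targets moved in both directions. Of a list of 19, all of them tested, 4 rose, 3 fell and 12 were not called, with a median change of -0.03 and a median size of 0.18 against 0.15 over all genes. The higher share stood beside 5.03% of all genes and the lower beside 5.66%; the 2 directions together made 7 of 19.

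The genes that rose were Ccn2, Tgfb2, Fjx1 and F3. Ccn2, a secreted matricellular protein and a standard YAP target, read 237.8, 281 and 303.4 with BMP4 and 96.6, 112.5 and 99.1 without it, a log2 change of 1.28 ± 0.11 (limma adjusted p = 3.86e-05). Tgfb2, a ligand of the TGF-beta family, rose by 0.93 ± 0.07 (adjusted p = 1.76e-05) on its brightest probe set, from 448 ± 23.4 to 867 ± 46.8 (SD, n = 3); of its other 3 probe sets 2 were called higher and the dimmest was not (0.78, adjusted p = 0.0615). Fjx1, a secreted kinase family protein related to the Drosophila gene four-jointed, rose from 75.0 ± 18.7 to 142 ± 5.0, a change of 0.81 ± 0.15 (adjusted p = 0.00592). On the brightest probe sets of these 3 genes and of F3 every BMP4 array lay above every control array. Groups lay apart, in either direction, on 28.2% of all probe sets tested. F3, tissue factor, changed by 0.32 ± 0.08 (adjusted p = 0.0349), a call lost without any 1 of the BMP4 replicates (adjusted p = 0.0564, 0.108 and 0.078), without control replicate 2 (0.1) and without control replicate 3 (0.113).

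The genes that fell were Igfbp3, Rbms3 and Axl. Igfbp3, which binds insulin-like growth factors, read 64, 69.9 and 79.8 with BMP4 and 350.6, 351.1 and 338.6 without it, a log2 change of -2.06 ± 0.10 (limma adjusted p = 7.2e-07). Its other probe set gave -2.84 ± 0.26 (adjusted p = 5.46e-05), with BMP4 signals of 15.6, 62.6 and 45 that reached down to background. Axl, a receptor tyrosine kinase, read 878.9, 1000.4 and 997.7 against 1184, 1293.5 and 1259, a change of -0.37 ± 0.07 (adjusted p = 0.00886). Rbms3, an RNA-binding protein, changed by -0.39 ± 0.07 (adjusted p = 0.00421), and by -0.36 (0.0322), -0.17 (0.281) and -0.26 (0.359) on its other probe sets. On these brightest probe sets of Igfbp3, Axl and Rbms3 every BMP4 array lay below every control array. Of all probe sets tested 28.2% had groups apart in either direction. Asap1, named after its values were seen, gave -0.05 (adjusted p = 0.797) on its brightest probe set and -0.34 (adjusted p = 0.0252) on another.

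Ccn1, the secreted relative of Ccn2 and another standard target, differed by probe set. The brightest (1416039_x_at) read 1212.1, 1537.7 and 1167.7 in BMP4 cells and 1817.3, 1644.2 and 1484.8 in controls, with 1 BMP4 array among the controls. For this probe set the log2 change was -0.34 ± 0.11 (limma adjusted p = 0.084). The next (1438133_a_at) gave -0.40 ± 0.11 and was called lower (adjusted p = 0.0463). The 2 dim ones rose: 1457823_at went from 47.7, 37 and 20.5 to 146, 109.7 and 110.7, a change of 1.46 ± 0.21 (adjusted p = 0.0012), and 1442340_x_at from 58.4, 28.1 and 23.9 to 150.3, 89.5 and 130.3, a change of 1.43 ± 0.25 (adjusted p = 0.00393). Their control signals reached below the background of 29.1 on 1 and 2 arrays, and the size is not firm: with 1 added in place of 16 the changes were 1.84 and 1.79, with 64 added 0.91 and 0.90. The bright Ccn1 probe sets thus read lower and the dim ones higher in the same 6 samples, and no direction is given for the gene. Without BMP4 replicate 2 the brightest was called lower as well (-0.46, adjusted p = 0.0182). The call of 1438133_a_at was lost without BMP4 replicate 1 (adjusted p = 0.141), BMP4 replicate 3 (0.119), control replicate 1 (0.156) or control replicate 2 (0.141).

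**Figure D4:**
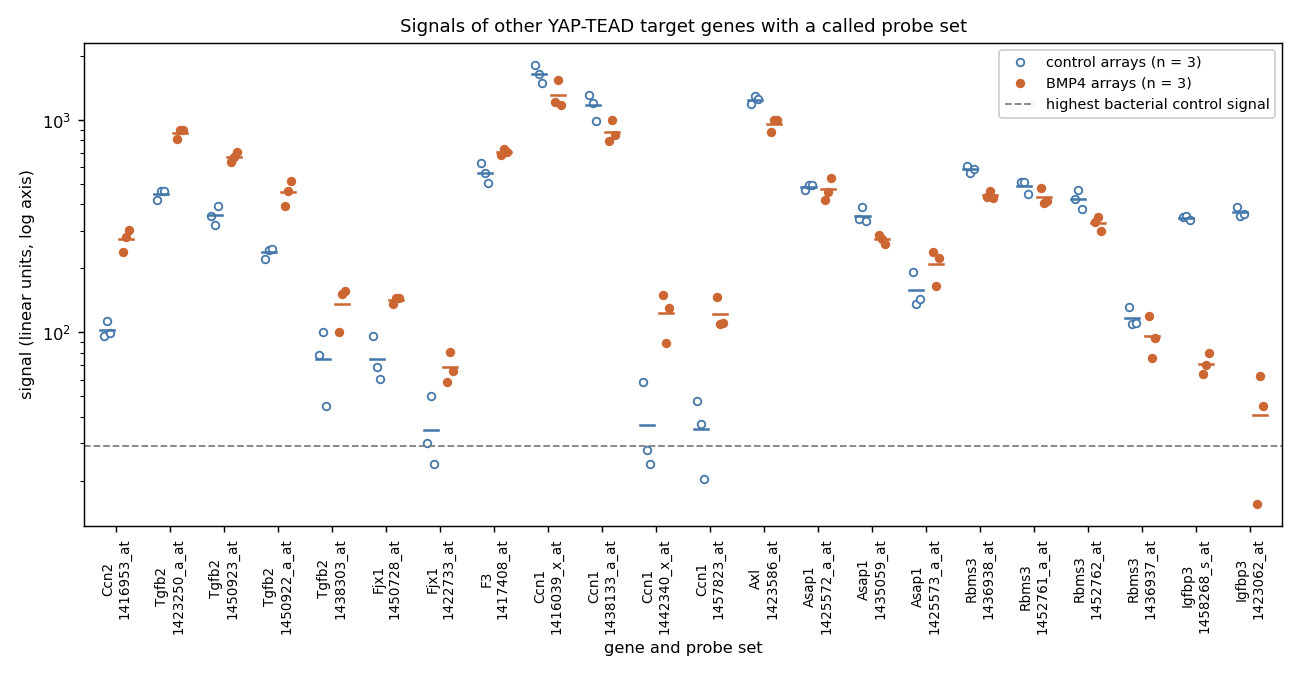
Signal on every array for the tested probe sets of other YAP-TEAD target genes of which at least 1 probe set was called (linear signal on a log axis; open circles, 3 control arrays; filled circles, 3 BMP4 arrays; short lines, group means; dashed line, highest bacterial control signal, 29.1). The dashed line leaves out the bacterial hybridisation controls. The bright Ccn1 probe sets lie lower with BMP4 and the dim ones higher, while Ccn2 and Tgfb2 lie higher and Igfbp3 lower.

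The members and the targets around them were read from cultures that also differed in other gene groups. The 2% trimmed mean was 150 on every array, and median signals were 37.6 to 42.6 with BMP4 and 35.2 to 37.3 without it. Each marker was read on its brightest probe set. Of 6 mesenchymal markers 0 were called, with summed signals of 30302 to 34851 and 26311 to 32524. A dimmer Prrx1 probe set, 1439774_at, named after its values were seen, was called lower (-0.49, limma adjusted p = 0.0014). Beside the counts of all marker lists stand 5.03% of all genes tested called higher and 5.66% called lower. Of 5 measured proliferation genes 5 rose, with sums of 5546 to 5917 against 3607 to 3995. Of 4 tested chondrocyte markers 2 rose, Col2a1 and Sox9 (sums of 1541 to 1766 against 589 to 646, Matn1 under background), and of 3 tested adipocyte markers Adipoq and Fabp4 rose and Lpl fell (sums of 527 to 542 against 232 to 276, Cidec under background).

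Contractile genes, of which several are also read as signs of tension, moved both ways, with Acta2 higher, Myl9 and Tpm1 lower, Cnn1 and Myh11 under background and sums of 8753 to 9821 against 8660 to 10123. Of endothelial markers Tek fell and Pecam1 was under background (145 to 244 against 233 to 258). Epithelial markers had 0 calls, with Cdh1 and Krt18 under background (334 to 600.3 against 461 to 567). Most of that sum came from Epcam probe set 1447899_x_at, named after its values were seen. The other Epcam probe set, 1416579_a_at, was under background on every array. Macrophage markers had 0 calls, with Ptprc under background (391 to 541 against 400.5 to 416). The part of these groups in the changes of Ccn2, Tgfb2, Igfbp3 or the other genes above was not tested.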

How the data were processed

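RNA of 6 samples was hybridised to 1 single-colour array each. The deposited values are linear signal intensities, and the submitters' processing notes name GCOS 1.3. How the authors scaled and background-corrected them is not given in the sources at hand. All 6 arrays had the same 2% trimmed mean, 150. They thus share 1 overall level, and a change common to most transcripts is not visible. Probe sets were named through the platform annotation, and 34958 of 45101 had 1 gene symbol, 932 several and 9211 none. The GRCm38.p6 gene table changed 0 symbols.

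Without the 64 control probe sets, log2(signal + 16) was computed, and probe sets with a mean above the 40th percentile (a signal of 23.5) were kept. Fold changes on this scale understate the change of low genes. BMP4 was compared with control by limma 3.58.1 in R 4.3.3 (eBayes with an intensity trend, two-sided, Benjamini-Hochberg over 27022 probe sets). The script was first tested on simulated data. Precision is limited by the 3 arrays per group.

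Members, gene lists and marker lists were chosen with earlier results of these data known. The genes named are all member probe sets, up to 5 called genes per direction of each pathway list, and Ccn1, Ccn2 and Axl. Also named are Stk3, the Hippo kinases and adaptors not called, Vgll2, Vgll4 and markers called or under background. Other names are marked as chosen after their values were seen. Promoters were taken from a RefSeq table and trimmed to the 250 bases before the start. Alternatives were other pseudocounts, filters, scalings and variance models, a replicate block and leaving out each array.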

Additional observations from a re-analysis of the deposited data

How the results depend on the processing

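In 15 of the 17 alternative settings 0 of the tested members were called; 1 Lats2 probe set was called lower with median centring and 1 other without control replicate 3, so that leaving out 1 array gave 0 to 1 lower. Of 269 values for members under alternatives, 267 kept their side of the threshold, 2 were newly called and 0 called values changed sign; 17 values that were not called either way changed sign. Of 306 values for 18 other named probe sets 39 lost their call, 2 gained one and 0 reversed. These 18 were the called probe sets read for the pathway lists and all tested Ccn1 and Sav1 probe sets. The further probe sets named for Fat4, Amot, Vgll3, Tgfb2, Rbms3, Igfbp3 and Asap1 were not followed under the alternatives.

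Over all probe sets 1136 were higher and 1328 lower; higher ones numbered 632 with median centring, and without the intensity trend there were 659 higher and 763 lower. Leaving out 1 array gave 845 to 1063 lower. Hippo genes called higher (1 in the report) numbered 0 with median centring, 0 without the trend, 2 when any probe set of a gene counted and 0 to 1 with 1 array left out. Those called lower (3) numbered 5 with median centring, 4 with array weights, 2 without the trend and 2 with all probe sets kept. Targets called higher (4) and lower (3) numbered 3 and 2 without the trend. They numbered 3 and 4 with median centring and 3 and 3 with all probe sets kept. Lower Vgll genes (1) numbered 0 without the trend and 0 to 1 with 1 array left out. The cause of these differences was not tested. The call of Axl was lost without the trend (adjusted p = 0.0748), as was that of Vgll3 (0.0823), Fat1 (0.0771), Fat4 (0.126), F3 (0.141), Sav1 1416075_at (0.141) and Ccn1 1438133_a_at (0.163). Median centring ended the calls of Fat1 (0.085), F3 (0.171) and Sav1 (0.308) and called Ccn1 1416039_x_at (0.0404). Keeping all probe sets ended those of Fat4 (0.0758), F3 (0.0724), Sav1 (0.0541) and Ccn1 1438133_a_at (0.115). The last was also lost with 1 added to the signal (0.0508), quantile normalization (0.059) and array weights (0.0554).

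Replicate numbers are shared by the groups, but same-numbered samples did not deviate together (correlations of 0.01, -0.003 and -0.072), and no BMP4 sample correlated best with the control sample of its own number. With the replicate block 985 probe sets were higher and 1105 lower, 0 members were called, and 3 targets rose and 3 fell; F3 (adjusted p = 0.0514) and Sav1 (0.0692) lost their calls.

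Signals near background limit what can be said of Ankrd1, Tead4 and the dim Lats2 probe sets.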
